A study of Mus musculus with 2 samples.

Results

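The genes of the nuclear pore and of nuclear transport were taken as the protein-coding genes of the GENCODE M21 annotation whose symbols begin with Nup and a digit, Kpna, Kpnb, Ipo and a digit, Xpo and a digit, or Tnpo, together with Ran, Rangap1, Ranbp1, Ranbp2, Rcc1, Seh1l, Sec13 and Tpr. The rule gave 51 of 21938 protein-coding genes, of which 25 encode parts of the pore, 22 encode transport receptors and 4 encode the small GTPase Ran and its regulators. GABPα binding was measured by chromatin immunoprecipitation and sequencing (ChIP-seq) on CD4+ T cells that had been isolated on magnetic (MACS) beads from C57BL/6 mice, wild type. There was 1 library made with an antibody to GABPα and 1 library of input DNA from the same kind of cells, made without the antibody step and used as the control for calling bound regions. The age of the mice and the number pooled were not given in the sources used here. The deposited list held 6782 bound intervals, of which 22 were no more than 1000 bp from a member's transcript start, and these 22 belonged to 21 members. With 1 ChIP library there were no replicates, so no p-value is given, and shares are given with Wilson 95% intervals that cover counting error only. An interval list holds no marker expression, so the labelled cell type could not be checked against its markers.

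Nuclear pore complexes are large assemblies that span the nuclear envelope and carry proteins and RNA in both directions. A Y-shaped complex and an inner ring form their scaffold, proteins rich in phenylalanine and glycine repeats fill the channel, and filaments and a basket extend to the cytoplasm and the nucleus. Importins and exportins carry cargo through the channel, and the difference in GTP-bound Ran between nucleus and cytoplasm, kept up by Rcc1 on chromatin and Rangap1 in the cytoplasm, sets the direction. GABPα is the DNA-binding subunit of GABP, a factor of the ETS family, whose members recognise a GGAA core.

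The motif was searched as CCGGAAG on either strand of the mm10 (GRCm38) reference. It occurred in 12 of the 22 intervals (54.5%, 95% interval 34.7 to 73.1), and in 57.2% of the 3459 intervals within 1000 bp of any protein-coding start. Of the 22 intervals, 4 held 2 copies, and their 8 copies are shown with 3 further copies from the widest interval of the central channel, inner ring and importin beta type groups, to let the bases around the motif be compared. Capitals mark the motif, and each run is read on the strand that carries it.
Sec13, chr6:113740690-113740718, minus strand: gcgggccggcaCCGGAAGtgaagcgtttt
Sec13, chr6:113740732-113740760, minus strand: tgtgttgctgaCCGGAAGatcctgggtga
Nup107, chr10:117792678-117792706, plus strand: cttcccgctctCCGGAAGcacacccttcg
Nup107, chr10:117792698-117792726, plus strand: cacccttcgacCCGGAAGcgcggcctggc
Nup37, chr10:88146898-88146926, plus strand: cagccaggacgCCGGAAGgcagaggtttg
Nup37, chr10:88146986-88147014, plus strand: cgccctccgacCCGGAAGcagagcgggcg
Tnpo3, chr6:29609831-29609859, plus strand: gcttccccgggCCGGAAGtggccgtccgt
Tnpo3, chr6:29609929-29609957, plus strand: cccgcctcctcCCGGAAGtgaccctgccg
Nup54, chr5:92435258-92435286, minus strand: caaacacacccCCGGAAGtgatcggtggt
Nup155, chr15:8109294-8109322, plus strand: gggaggacgaaCCGGAAGtgcgtcatgac
Ipo4, chr14:55635676-55635704, minus strand: cgccctttccgCCGGAAGttgctgtcgga

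Within each of the 4 pairs both copies lay on the same strand, and they were 20 bp apart at Nup107, 42 bp at Sec13, 88 bp at Nup37 and 98 bp at Tnpo3. Intervals with 2 or more copies made up 18.2% of the members' intervals (95% interval 7.31 to 38.5) and 13.9% of the intervals at protein-coding starts. Taking in each of the 12 intervals the copy nearest the midpoint, the base after the motif was T in 7 (58.3%). T followed the motif in 48.3% of such copies in intervals at protein-coding starts, and in 22.5% of 1674 copies at starts of protein-coding genes without an interval. These copies lay a median of 12 bp from the interval midpoint, and 11 of 12 were within 50 bp of it. They also lay a median of 15 bp upstream of the nearest transcript start, with 11 of 12 within 100 bp of a start, and 9 of 12 were on the strand of the gene. Matching values over the intervals at protein-coding starts are not given here for these positions and strands, or for the strands and spacings of the pairs. They therefore cannot be read as particular to the members.

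Of the 51 members, 21 had an interval within 1000 bp of a transcript start (41.2%, 95% interval 28.8 to 54.8), where 17.7% of all protein-coding genes did. A start was called CpG-rich when GC content was at least 50% and the ratio of observed to expected CpG at least 0.6, from 250 bp before to 50 bp after it. A CpG-rich start was present in 49 of the 51 members (96.1%) and in 54.5% of protein-coding genes, and the exceptions were Nup160 and Nup210l. Among genes with a CpG-rich start an interval was present at 21 of 49 members (42.9%) and at 29.6% of protein-coding genes. The background of 29.6% was just below the lower limit of the members' 95% interval in this group.

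An interval was present at 13 of 25 pore parts (52.0%, 95% interval 33.5 to 70.0) and at 6 of 22 transport receptors (27.3%, 13.2 to 48.2). The difference was 24.7 percentage points, with a Newcombe 95% interval of -3.17 to 47.6 that includes 0. With intervals counted within 500 bp, which leaves out Kpnb1, it was 29.3 points with an interval of 1.5 to 51.2. The share of the receptors was close to the 29.6% of genes with a CpG-rich start, and that of the pore parts was above it. Within the pore each gene was placed in a single role group. The Y complex stood highest, with 6 of 8 genes, followed by 2 of 3 central channel genes and 3 of 5 inner ring genes. An interval was present at 1 of 3 basket genes, 1 of 4 genes placed on the cytoplasmic side and 0 of 2 membrane genes. Among the receptors the counts were 2 of 5 exportins, 3 of 8 importins of the beta type, 1 of 3 transportins and 0 of 6 importin alpha genes, and the interval for 0 of 6 reached 39.0%. Of the Ran cycle, 2 of 4 genes had one. The interval of the Y complex, 40.9 to 92.9%, did not overlap that of importin alpha, 0.0 to 39.0%. This pair was picked out after the counts were seen, and the other pairs of role groups overlapped. The gap between 39.0 and 40.9% is narrow and holds only for the groups as drawn here, with Nup98 placed on the cytoplasmic side. Other placements of that gene were not tried.

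**Figure D1:**
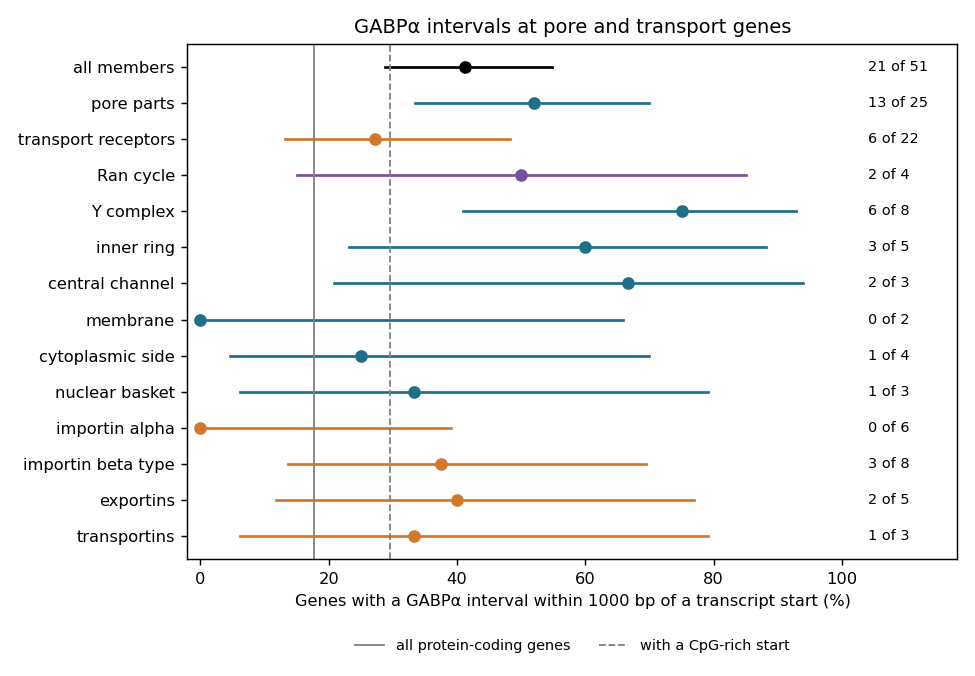
Share of genes with a GABPα interval within 1000 bp of a transcript start, in percent, for all members, the 3 classes and the role groups. Points are shares, horizontal lines are Wilson 95% intervals, the counts stand at the right, and the grey lines mark all protein-coding genes (17.7%, solid) and those with a CpG-rich start (29.6%, dashed). Pore parts lie at 52.0% and transport receptors at 27.3%, and their intervals overlap.

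The height of binding is not in the list, since its score column is empty, so width in bp was the only value of an interval. The 22 widths ran from 114 bp at Nup43 to 347 bp at Tnpo3, with a median of 213 bp (95% interval 185 to 270). The median of the intervals at protein-coding starts was 210 bp and that of the whole list was 157 bp. Medians were 201.5 bp at pore parts, 212.5 bp at receptors and 271 bp at the Ran cycle genes, and the widths of pore parts, from 114 to 288 bp, overlapped those of receptors, from 185 to 347 bp. Intervals with CCGGAAG had a median of 231.5 bp and those without it 201 bp, beside 230 and 185 bp over the intervals at protein-coding starts. A transcript start was covered by 16 of the 22 intervals (72.7%, 95% interval 51.8 to 86.8), against 80.2% of the intervals at protein-coding starts. The midpoints lay a median of 25 bp from the nearest start, against 29 bp. In 21 of the 22 every 36-base sequence, the length of the reads, occurred 1 time in the numbered chromosomes, X and Y.

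**Figure D2:**
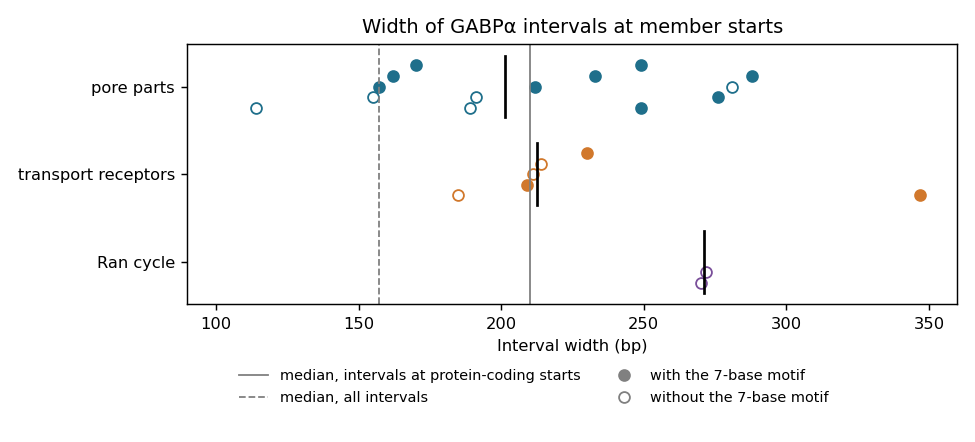
Width in bp of the 22 member intervals, 1 point each, by class. Filled points hold CCGGAAG, open points do not, black bars are class medians, and grey lines mark the medians of the intervals at protein-coding starts (210 bp, solid) and of the whole list (157 bp, dashed). Nup43, at 114 bp, is the narrowest and Tnpo3, at 347 bp, the widest.

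The Y complex, the outer scaffold of the pore, had intervals at Nup107, Nup133, Nup37, Nup43, Sec13 and Seh1l. The interval of Sec13, whose product also coats vesicles of the secretory pathway, was the widest of this group at 288 bp (chr6:113740556-113740843) and covered the 5′ end of the gene. Its 2 copies of CCGGAAG, printed above, lay 23 bp downstream and 3 bp upstream of the starts nearest to them. Nup107 had an interval of 276 bp (chr10:117792574-117792849), whose copies lay 6 bp downstream and 7 bp upstream of a start. The interval of Nup37 (chr10:88146873-88147121, 249 bp) was shared with Parpbp, which runs in the opposite direction and whose 5′ end is 51 bp away. The first motif copy at Nup37 was 80 bp upstream and the second 8 bp downstream of a start. At Nup133 the interval (chr8:123949278-123949468, 191 bp) ended 13 bp upstream of the start, covered no start and held no CCGGAAG. Nup43 had the narrowest interval (chr10:7667442-7667555, 114 bp), in the 21.4th percentile of widths in the list, with a single GGAA core.

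Of the 8 genes grouped here as the Y complex, Nup160 and Nup85 were without an interval by the rule. Nup98, also without one, was counted with the cytoplasmic side and not with the Y complex. The nearest interval to Nup160, chr2:90679248-90679458, was 2033 bp downstream of its start, the smallest distance beyond the limit of 1000 bp, and the largest distance within that limit was 707 bp, at Kpnb1. The interval in Nup160 was 211 bp wide with a GC content of 67.3%, lay within 1000 bp of no annotated transcript start, and overlapped the exon in which the coding sequence of Nup160 begins. Every 36-base sequence in it was unique in the genome. Its copy of CCGGAAG, in capitals below, lay 5 bp from the interval midpoint and 61 bp upstream of the first coding base, in the 5′ UTR. It is shown because its interval was the closest to a member that the rule left without one, and it was chosen after its values were seen.
Nup160, chr2:90679334-90679362, plus strand: gcgccacacccCCGGAAGtgacgagccga

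For Nup85 the nearest interval was 6268 bp away, at the start of Gga3. It was 106 bp wide, fully soft-masked as repeat sequence, and held no 36-base sequence that is unique in the genome.

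Seh1l, a Y complex subunit that also belongs to a regulator of nutrient signalling, was the 1 member of the 21 with 2 intervals, where 7.76% of the protein-coding genes with an interval had 2 or more. The first, on chromosome 18 from 67774729 to 67774898 (170 bp), covered the 5′ end of the gene. The second, from 67775162 to 67775323 (162 bp), lay in an intron and began 187 bp downstream of the nearest start. Each held 1 copy of CCGGAAG.

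In the central channel, the repeat-rich proteins Nup54 and Nup62 both had an interval with 1 copy of CCGGAAG. That of Nup54 (chr5:92435084-92435332, 249 bp) covered the 5′ end and held 7 GGAA cores, with the CCGGAAG copy 53 bp upstream of a start. That of Nup62 (chr7:44816109-44816265, 157 bp) lay 21 bp downstream of the start, with its copy 98 bp downstream. It was also within 1000 bp of starts of Atf5, a transcription factor, and Il4i1, an amino acid oxidase, at 309 and 122 bp. Nup62cl, a paralog on the X chromosome, had no interval nearer than 393709 bp.

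Of the inner ring, Nup155, Nup188 and Nup35 had an interval and Nup93 and Nup205 did not. The interval of Nup155 (chr15:8109205-8109437) was the widest of the group at 233 bp and that of Nup188 (chr2:30286283-30286471) the narrowest at 189 bp. Nup188 shared its interval with Dolk, a kinase of dolichol, whose 5′ end is 63 bp away on the opposite strand. The interval of Nup35 (chr2:80638687-80638898, 212 bp) covered an alternative start 21580 bp downstream of the 5′ end of the gene, and held a copy of CCGGAAG 27 bp upstream of that start. It was also the 1 interval of the 22 in which some 36-base sequences recurred in the genome, with 79.7% unique. The nearest intervals to Nup205 and Nup93 were at 7380 and 8378 bp, neither at a protein-coding start, and the latter lay inside Nup93 in sequence that was fully soft-masked with no unique 36-base sequence.

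On the cytoplasmic side, where export complexes are released, Nup214 had an interval of 281 bp (chr2:31974278-31974558) over its 5′ end, with 5 GGAA cores but no CCGGAAG. Nup88, its partner, had none nearer than 12903 bp, and Ranbp2, the Ran-binding filament protein Nup358, none nearer than 50642 bp. Nup98, placed in this group here though not particular to this side, had none nearer than 117947 bp. The membrane members were without an interval as well, the nearest being 23660 bp from Nup210l and 562324 bp from Nup210. In the basket on the nuclear side, Nup50 and Tpr had their nearest intervals at 113555 and 895504 bp, the latter the largest distance among the 51 genes. Nup153, which anchors the basket, had an interval of 155 bp that ended 84 bp upstream of the start.

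The interval of Nup153 is printed whole, on the minus strand that the gene runs on, because it held 5 GGAA cores, overlapped no annotated transcript and held no CCGGAAG. All 5 cores lay on the opposite strand and read TTCC here, in capitals, 2 of them next to each other. The choice was made after its values were seen.
Nup153, chr13:46728024-46728178, minus strand: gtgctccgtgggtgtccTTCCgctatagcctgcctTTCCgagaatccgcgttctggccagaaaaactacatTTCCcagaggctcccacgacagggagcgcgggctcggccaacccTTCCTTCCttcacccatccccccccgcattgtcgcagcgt

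Among the importins of the beta type, Ipo4, Ipo7 and Kpnb1 had an interval. Ipo4 had the widest (chr14:55635591-55635820, 230 bp), which covered 2 starts but not the 5′ end of the gene, 273 bp away from the nearest of them, and its CCGGAAG copy lay 6 bp upstream of a start. Ipo7 (chr7:110018156-110018366, 211 bp) had 3 GGAA cores. Kpnb1, importin beta 1, which carries importin alpha with its cargo, had the narrowest of the group (chr11:97186990-97187174, 185 bp), and it lay 707 bp downstream of the start in an intron. The importins without an interval were Ipo13, Ipo8, Ipo9, Ipo5 and Ipo11, with the nearest at 2915, 64725, 73659, 124304 and 536910 bp. That of Ipo13 lay at the start of Dph2, an enzyme of diphthamide synthesis.

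None of the 6 importin alpha genes, which bind the classical import signal and link cargo to Kpnb1, had an interval within 1000 bp. The nearest intervals were 19355 bp from Kpna1, 28339 bp from Kpna2, 54119 bp from Kpna6, 55900 bp from Kpna7, 121629 bp from Kpna4 and 892053 bp from Kpna3. All 6 had a CpG-rich start, and the nearest interval of each was at a start of another protein-coding gene.

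Of the exportins, Xpo5, which exports microRNA precursors, and Xpo6, which exports actin, had an interval. That of Xpo5 (chr17:46202573-46202786, 214 bp) was shared with Polh, a DNA polymerase, whose 5′ end is 137 bp away on the opposite strand. That of Xpo6 (chr7:126200371-126200579, 209 bp) covered the 5′ end and held 1 copy of CCGGAAG 23 bp upstream of a start. Xpo1, the main exporter of proteins with a leucine-rich signal, had none nearer than 21603 bp, Xpo7 none nearer than 26136 bp and Xpo4 none nearer than 76931 bp. Among the transportins, Tnpo3, an importer of splicing factors, had the widest interval of all members (chr6:29609696-29610042, 347 bp), in the 95.5th percentile of the list, with 8 GGAA cores. Tnpo2 and Tnpo1 had none nearer than 9807 and 418241 bp.

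In the Ran cycle, Ranbp1 and Rangap1, which act together on GTP hydrolysis by Ran, had intervals of 270 and 272 bp. That of Ranbp1 (chr16:18248743-18249012) ended 11 bp upstream of the start and covered starts of Trmt2a, a tRNA methyltransferase whose 5′ end is 53 bp away on the opposite strand. That of Rangap1 (chr15:81729958-81730229) covered an alternative start 15527 bp downstream of the 5′ end of the gene. Ran and Rcc1 had no interval nearer than 75143 and 10375 bp. Intervals shared with another protein-coding gene, which were those of Nup37, Nup62, Nup188, Ranbp1 and Xpo5, were 5 of the 22 (22.7%, 95% interval 10.1 to 43.4), where 20.7% of the intervals at protein-coding starts were shared. To which of the genes such an interval belongs cannot be told apart.

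**Figure D3:**
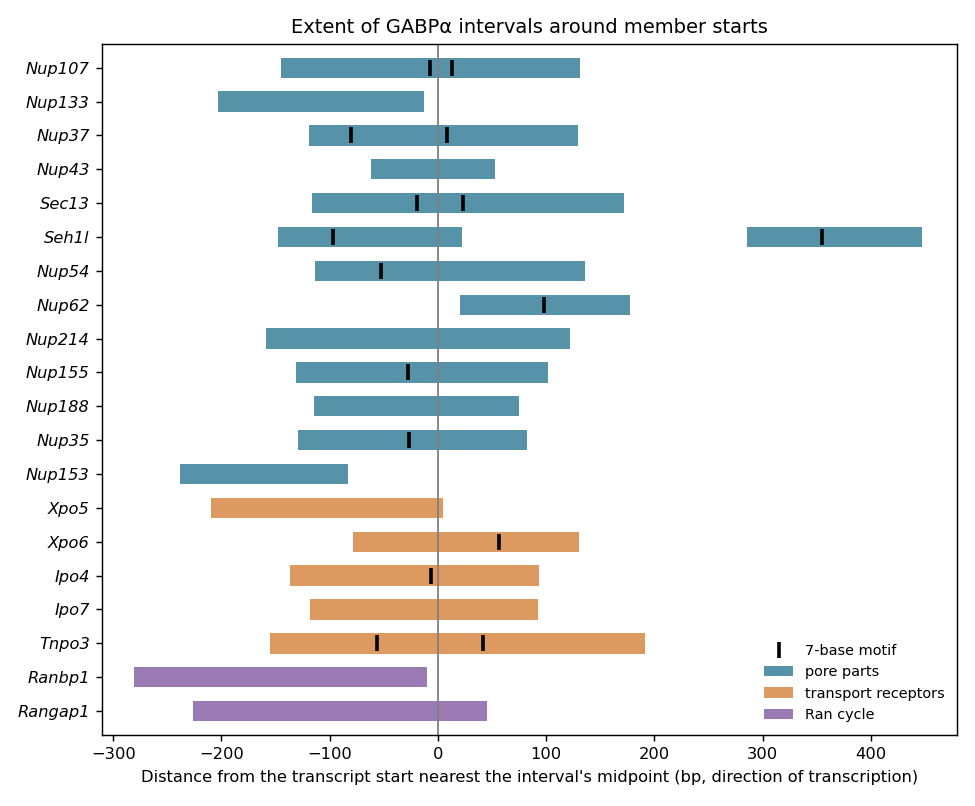
Extent of the members' intervals in bp relative to the transcript start nearest each interval's midpoint, with transcription to the right; both intervals of Seh1l are set on the start nearest its first, and Kpnb1, 707 bp inside its gene, is left off. Bars are intervals coloured by class and black ticks are copies of CCGGAAG. Most bars span 0, those of Nup133, Nup153 and Ranbp1 end upstream of it, and that of Nup62 begins 21 bp downstream.

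Of the 10 intervals without CCGGAAG, 6 held the shorter CGGAAG and the remaining 4, at Nup133, Nup43, Ipo7 and Kpnb1, held GGAA alone. CGGAAG was in 18 of the 22 intervals (81.8%), against 76.6% of the intervals at protein-coding starts, and GGAA in all 22, against 98.8%. Cores are shown in capitals with their flanks for the 2 Ran cycle genes and for Nup214 and Xpo5, whose intervals were the widest of their groups. In these it is the copy of CGGAAG nearest the interval midpoint. For Ipo7 and Nup43 it is the GGAA core nearest the midpoint. At Xpo5 a GGAA core nearer the midpoint than the marked CGGAAG is left in lower case. They let the weaker cores be set beside the full motif.
Ranbp1, chr16:18248875-18248902, minus strand: cagcctgcaggCGGAAGtgcgcgcgtgg
Rangap1, chr15:81730126-81730153, plus strand: atggtatttgaCGGAAGcgcccgcagac
Nup214, chr2:31974345-31974372, minus strand: cgagggctgctCGGAAGtcgcgcgcttg
Xpo5, chr17:46202653-46202680, minus strand: gggctggggaaCGGAAGttccgcggtgc
Ipo7, chr7:110018229-110018256, plus strand: ggagacttgacaGGAAgtggccggagca
Nup43, chr10:7667487-7667514, plus strand: cagaactgcgcaGGAAggggcgggcctg

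These cores lay between 3 bp (Nup43) and 59 bp (Nup214) from the midpoint of their interval. At Ranbp1 the core was 157 bp upstream of the start on the strand of the gene, and at Nup43 it was 2 bp upstream of the start.

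The motif was then counted at the starts themselves, from 250 bp before to 50 bp after each transcript start, whether or not an interval was there. CCGGAAG was present at a start of 15 of the 51 members (29.4%, 95% interval 18.7 to 43.0) and of 17.4% of protein-coding genes. Of these 15 members 11 had an interval (73.3%, 95% interval 48.0 to 89.1), beside 59.4% of the protein-coding genes with the motif at a start. Among the 21 members with an interval 11 had the motif at a start (52.4%), beside 58.3% of protein-coding genes with an interval, and among the 30 without one 4 did (13.3%), beside 8.58%. By class, an interval was present at 8 of 8 pore parts with the motif at a start (95% interval from 67.6%), at 3 of 6 receptors and at 0 of 1 gene of the Ran cycle. These counts are by gene, so the motif and the interval need not be at the same start. The motif itself was at a start of 32.0% of the pore parts and 27.3% of the receptors.

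**Figure D4:**
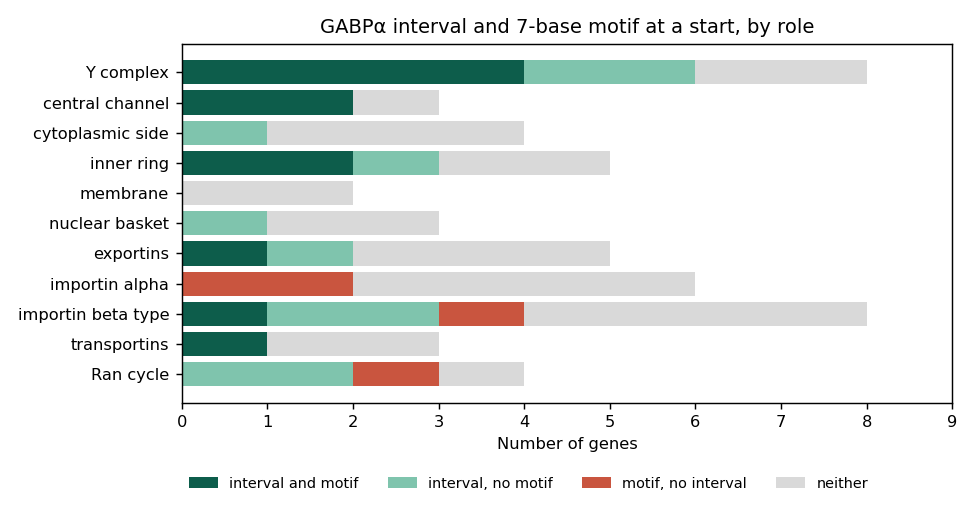
Number of genes in each role group with a GABPα interval and the CCGGAAG motif near a start, with the interval alone, with the motif alone, or with neither. Motif without interval occurs in importin alpha (2 genes), importin beta type (1) and the Ran cycle (1), and in none of the 25 pore parts.

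The 4 members with the CCGGAAG motif at a start and no interval within 1000 bp were Rcc1, Kpna6, Kpna7 and Ipo8, and their copies are shown for comparison with the bound ones.
Rcc1, chr4:132353667-132353695, plus strand: ttaagtaacgcCCGGAAGtcaggcgtggt
Kpna6, chr4:129655099-129655127, plus strand: agagcttctccCCGGAAGccctgttcagt
Kpna7, chr5:145004650-145004678, plus strand: ttatctgtgatCCGGAAGcggctgtaggc
Ipo8, chr6:148782777-148782805, minus strand: agacaccatgaCCGGAAGatgtgtataat

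The copy at Rcc1, the exchange factor of Ran, was at position -76 relative to the 5′ end of the gene, where a protein-coding transcript begins. The other 3 copies were at starts of transcripts annotated as non-coding, 17832 bp (Kpna6), 79351 bp (Kpna7) and 48825 bp (Ipo8) downstream of the 5′ end of their genes. Rcc1 was thus the single member with the motif at its 5′ end and without an interval within 1000 bp of any start. Nup35 also had the motif at its 5′ end but no interval within 1000 bp of that end. Its interval was at the alternative start 21580 bp downstream.

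Members without an interval had the nearest one at a median of 55010 bp, from 2033 bp at Nup160 to 895504 bp at Tpr. For 23 of these 30 the nearest interval was at a start of another protein-coding gene. It was within 10000 bp of a start in 6 of the 30 and beyond 100000 bp in 10. Matching values for all protein-coding genes without an interval are not given here, so these distances cannot be read as particular to the members.

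Further genes of the pathway came from a list of 29 that the symbol rule does not take in. An interval was present at 15 of them (51.7%, 95% interval 34.4 to 68.6), beside 17.7% of all protein-coding genes and 29.6% of those with a CpG-rich start. With starts at the 5′ end alone the share was 41.4%, beside 16.4% of all protein-coding genes. With intervals at 1 protein-coding gene only it was 34.5%, for which the share of all protein-coding genes is not given here. Of the 14 genes of mRNA export, 10 had one, among them Nxf1 and Nxt1, which form the main mRNA export receptor, and the helicase gene Ddx39b. The interval of Ddx39b was 262 bp wide with 2 copies of CCGGAAG, as was that of Alyref, an export adaptor, at 313 bp, while that of Nxf1 lay 753 bp from the nearest start. Of 8 further pore genes, 4 had one: Aaas (230 bp), Gle1 (264 bp), Rae1 (285 bp) and Nupl1 (115 bp), which encodes the channel protein Nup58. Of 7 further receptors and adaptors 1 had one, Snupn (267 bp), the adaptor for import of spliceosomal particles, and Cse1l, which returns importin alpha to the cytoplasm, and Xpot, the tRNA exporter, had none nearer than 55352 and 13989 bp.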

How the data were processed

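GABPα ChIP-seq was analysed from 1 ChIP library. Per the submitters' processing notes, the authors used Trimmomatic, Bowtie and MACS2 with the mm10 build; versions were not given in the sources used here. The deposited values are interval starts and ends in bp (no other unit); the score column is empty, so height, fold and depth are unknown. The input entered through the authors' calling alone.

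Starts were taken as 0-based and are printed 1-based. Sequences came from the GRCm38.p6 RefSeq assembly (mm10), and transcripts from GENCODE M21. The distance of an interval is that of its nearest edge to any transcript start. Uniqueness was counted over all 36-base sequences of the numbered chromosomes, X and Y. Unplaced scaffolds and the mitochondrial genome were not searched, so unique in the genome means unique in these chromosomes. Shares have Wilson intervals, the difference a Newcombe interval and median widths a binomial order-statistic interval. Code ran in Python 3.11.15 (numpy 2.4.6, pandas 2.3.3, scipy 1.17.1, numba 0.67.0) and was tested on simulated data.

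Every member was named; full values were given for the widest and narrowest interval of each role group, for members with 2 or more intervals and for intervals off a start. The other values and most sequences were added after they were seen. Members and lists were chosen with earlier results of these data known. Alternatives covered the distance, transcripts, width, repeats, groups and motif.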

Additional observations from a re-analysis of the deposited data

How the results depend on the processing

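With 1 ChIP library no replicate could be left out. No paired analysis was possible because there is 1 ChIP library. The share of members with an interval ran from 37.3% to 45.1% over the distances, transcripts, widths and groups tried. The share of all protein-coding genes ran from 14.0%, with intervals of at least the median width, to 19.9%, within 5000 bp. The difference between pore parts and receptors ran from 16.7 to 29.3 percentage points, higher in pore parts throughout. The interval of this difference excluded 0 within 250 or 500 bp (29.3, 1.5 to 51.2), where Kpnb1 was lost, and included 0 under the others of these. Alternatives chosen after seeing the data were RefSeq starts, which gained and lost no member, intervals at 1 protein-coding gene (31.4% of members, difference 17.3, -9.27 to 40.3), and groups widened with 8 pore genes, Cse1l and Xpot (difference 26.5, 0.794 to 47.1). Cse1l and Xpot were both without an interval. The import adaptor Snupn, which had one, was not added to the receptors, and a difference with it is not given here. That the last interval excludes 0 thus holds only for the genes added. For the 31.4% the matching share of all protein-coding genes is not given here, and 17.7% and 29.6% were counted by another rule. Starts at the 5′ end alone lost Nup35 and Rangap1, and intervals of at least the median width lost Nup153 and Nup43. The motif counts moved with the letters searched: intervals with CGGAAG were 81.8% and with GGAA 100%, against 54.5% with CCGGAAG. Members with the CCGGAAG motif at a start moved from 29.4% to 49.0% within 1000 bp to either side (33.3% of protein-coding genes), to 17.6% at the 5′ end alone (10.8%), and to 60.8% with CGGAAG (32.8%). The depth is unknown, so an absent interval says only that none was called. Groups of 2 to 8 genes leave wide intervals.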
